A study of Mus musculus with 17 samples.

Results

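The tumour suppressor p53, encoded by Trp53, and 9 of its direct transcriptional targets (Cdkn1a, Mdm2, Ccng1, Phlda3, Trp53inp1, Zmat3, Bax, Bbc3 and Sesn2) were followed in bronchoalveolar lavage cells of A/J mice. Members were all probe sets annotated to exactly 1 of these 10 genes, which gave 15 of the 45101 probe sets on the array and 8 of the 10 genes. Trp53 and Bax had no probe set under their own symbol in the annotation used, so their expression is not analysed here and only their promoter windows were searched.

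RNA from lavage cells was hybridised to 17 Affymetrix Mouse430_2 arrays, of which 6 came from untreated A/J mice matched for age and 11 from A/J mice given urethane. Lavage washes out the free cells of the airways and air spaces, mostly alveolar macrophages in a healthy mouse. Urethane (ethyl carbamate) is a carcinogen whose activated metabolite forms DNA adducts, and A/J is an inbred strain prone to lung tumours after it. The labels give no dose, no interval after treatment and no age, and 1 control carries 2 numbers (6 and 13). Nothing in them states that every number stands for its own mouse. The p-values therefore reflect only how these samples vary, which may be technical. A sample description calls the control material lung tissue, whereas the source names lavage cells.

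p53 is a transcription factor that is held at a low level by the ubiquitin ligase Mdm2 and is stabilised after DNA damage or other stress. It then binds DNA as a tetramer and raises genes that stop the cell cycle, kill the cell, repair DNA or alter metabolism. Mdm2 is itself one of these genes, which closes a negative feedback loop. In the lung, p53 limits the growth of tumours started by carcinogens. Much of its control is on the protein, which these arrays do not measure.

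Of the 14 member probe sets above the filter on dim signals, 3 rose after urethane and 0 fell, against a background of 0.971% of the 29550 probe sets tested that rose and 1.58% that changed in either direction. The members were chosen with earlier results of these data known, so this comparison is a description and not an independent test. Phlda3, which encodes a small inhibitor of the kinase Akt, rose 2.06-fold. Trp53inp1, encoding a nuclear stress protein that promotes p53-dependent apoptosis, rose 1.49-fold by 1 of its 2 probe sets. Zmat3, encoding a zinc finger protein that binds RNA, rose 1.42-fold. The best known targets did not pass the test: Cdkn1a, the cell cycle inhibitor p21, differed by 0.32 (adjusted p = 0.566) and Mdm2 by 0.03 on the log2 scale (adjusted p = 0.959, limma). Bulk RNA cannot tell more RNA per cell from more cells of a type that holds that RNA.

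All differences are of log2(signal + 17.1), urethane minus control, so those of dim probe sets are understated. The limma test ran across all probe sets and was two-sided. A probe set passed at a p under 0.05 after adjustment by the Benjamini-Hochberg method. The median difference of the 14 member probe sets was 0.30, against -0.05 for all probe sets tested, whose quartiles were -0.25 and 0.13. Of the 14, 10 lay above 0, against 41.8% of all. Over the 8 genes, each taken by its brightest probe set, the median was 0.42.

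Windows around the transcription starts of the member genes were searched for the consensus of p53 binding, and 4 are printed. Those of Cdkn1a, Ccng1 and Mdm2 held an exact match, and these genes did not pass in the pooled fit. That of Phlda3, which rose, held none, so match and measured rise did not go together in them. Sequences are from RefSeq on the GRCm38.p6 assembly, which is of the C57BL/6J strain and not of A/J. Each runs from 250 bases before to 50 after a transcription start. Capitals mark the p53 decamer consensus, of which p53 binds a pair, and in the Cdkn1a upstream and Ccng1 windows also a directly adjoining decamer with 1 mismatch. The consensus reads the same on both strands, so both were covered, and a pair was counted with up to 13 bases between its members.

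Cdkn1a upstream start, chr17:29090729-29091028, plus strand: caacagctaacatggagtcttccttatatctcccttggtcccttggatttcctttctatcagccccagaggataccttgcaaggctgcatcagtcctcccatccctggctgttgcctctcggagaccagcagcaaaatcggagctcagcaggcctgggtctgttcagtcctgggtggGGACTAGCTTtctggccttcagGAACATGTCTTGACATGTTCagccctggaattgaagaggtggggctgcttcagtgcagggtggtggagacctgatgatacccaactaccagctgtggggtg
Ccng1, chr11:40755237-40755536, minus strand: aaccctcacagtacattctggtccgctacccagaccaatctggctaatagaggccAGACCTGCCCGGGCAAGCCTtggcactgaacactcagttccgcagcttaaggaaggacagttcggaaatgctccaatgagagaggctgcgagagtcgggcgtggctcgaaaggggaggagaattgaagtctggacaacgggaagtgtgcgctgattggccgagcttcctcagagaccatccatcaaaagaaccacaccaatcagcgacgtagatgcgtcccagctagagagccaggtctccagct
Mdm2, chr10:117710709-117711008, minus strand: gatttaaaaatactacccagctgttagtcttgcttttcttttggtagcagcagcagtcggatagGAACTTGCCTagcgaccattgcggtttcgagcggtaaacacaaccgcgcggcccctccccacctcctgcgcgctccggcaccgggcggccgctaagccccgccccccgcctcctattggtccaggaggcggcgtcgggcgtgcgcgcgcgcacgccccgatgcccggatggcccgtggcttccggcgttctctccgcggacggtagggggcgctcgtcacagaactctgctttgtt
Phlda3, chr1:135765835-135766134, plus strand: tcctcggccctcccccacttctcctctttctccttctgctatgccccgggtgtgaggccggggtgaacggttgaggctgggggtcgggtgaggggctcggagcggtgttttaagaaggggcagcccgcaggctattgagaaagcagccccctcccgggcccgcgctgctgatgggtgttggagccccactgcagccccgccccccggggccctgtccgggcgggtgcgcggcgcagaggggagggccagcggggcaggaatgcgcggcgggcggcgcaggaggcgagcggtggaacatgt

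At least 1 exact decamer was present in windows of 5 of the 8 members with a window in the promoter table (Bax, Ccng1, Cdkn1a, Mdm2 and Trp53), or in 5 of their 11 windows. These 8 are not the 8 measured genes, since Bax and Trp53 have a window but no measured signal. Of all 32851 windows in the table, 8.36% held one. The Cdkn1a upstream window held 2 exact decamers, at 73 and 51 bases before the start site (GGACTAGCTT and GAACATGTCT), a pairing found in 0.0731% of all windows. The window at its other start held none. The decamer of Ccng1 (GGGCAAGCCT) began 185 bases before the start and that of Mdm2 (GAACTTGCCT) 186 bases before it. With a pair and up to 1 mismatch in all, Cdkn1a and Ccng1 matched, as did 0.627% of all windows. No exact match was present in the windows of Phlda3, Sesn2 and Bbc3, which says only that these letters are not in these windows. Zmat3 and Trp53inp1 are named without a window. No exact decamer thus lay in the windows of Phlda3, the member with the largest rise, or of Bbc3 and Sesn2, which did not pass. Cdkn1a, Mdm2 and Ccng1 held one and did not pass in the pooled fit. The Phlda3 window held no decamer with up to 1 mismatch either, whereas 50.9% of all windows held one. It ends on GAACATGT, the opening letters of the Cdkn1a decamer GAACATGTCT. How many windows end on such letters was not counted, so nothing is drawn from this likeness. A decamer running past the end of the window was not searched for.

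Phlda3 ran lower in every control but 1 than in any urethane sample. Its signal (probe set 1449002_at) had a lowest value of 985, a median of 1108 and a highest value of 2163 in the 6 controls. In the 11 urethane samples it had a lowest value of 1761, a median of 2578 and a highest value of 3655. The groups overlapped through control 36 alone, since the other controls reached no higher than 1280.
The log2 means were 10.29 ± 0.41 (SD, n = 6) and 11.33 ± 0.32 (SD, n = 11). The difference was 1.04 (SE 0.16, 95% interval 0.71 to 1.37, adjusted p = 0.0013, limma), and all 11 urethane samples lay above the control mean. Arrays were scanned on 2 days, with 2 controls and 5 urethane samples on the first and 4 and 6 on the second, and each day used 1 chip lot. Phlda3 rose on both: by 0.96 on day 1 (SE 0.13, adjusted p = 0.0021) and by 1.17 on day 2 (SE 0.18, adjusted p = 0.0025, limma), with no overlap between the groups within either day. Of all probe sets tested, 2.83% rose on day 1 and 1.42% on day 2, and 0.717% were higher with no overlap on both days. Phlda3 passed in all 35 other settings tried, with adjusted p between 1.6e-05 and 0.0129 (limma).

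**Figure D1:**
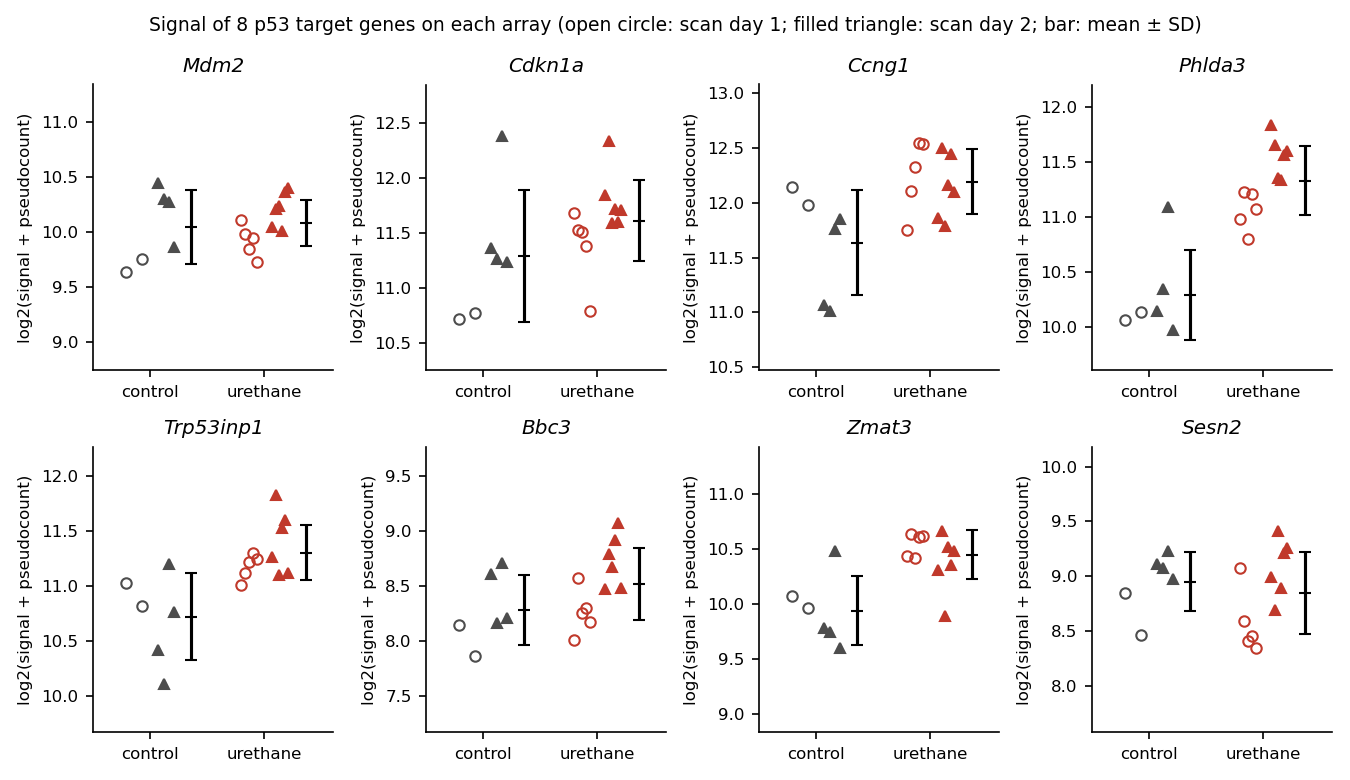
Signal of the brightest probe set of each of the 8 measured genes on the 17 arrays, as log2(signal + 17.1), with controls in grey and urethane samples in red. Open circles are scan day 1, filled triangles scan day 2, and bars the group mean with 1 SD; Phlda3 is separated on both days, and control 36 is the high control triangle in Phlda3, Cdkn1a, Trp53inp1 and Zmat3.

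Trp53inp1 rose less, and its probe sets did not both pass. The signal of 1416926_at ran from 1090 to 2328 with a median of 1761 in the controls, and from 2048 to 3624 with a median of 2415 after urethane. Controls 36 (2328) and 6_13 (2077) reached into the urethane range. The difference was 0.58 (SE 0.14, 95% interval 0.28 to 0.88, adjusted p = 0.0429, limma), with all 11 urethane samples above the control mean. The dimmer probe set 1416927_at differed by 0.27 (SE 0.23, adjusted p = 0.711). On day 2 the difference of 1416926_at was 0.78 (adjusted p = 0.0392) and on day 1 it was 0.26 (adjusted p = 0.189), and the test of the difference between the days did not pass (adjusted p = 0.31, limma); 0.0169% of all probe sets passed it. The call ended when the ratios of 3′ to 5′ signal of the Gapdh and beta-actin control probe sets were added to the fit, at 0.41 (adjusted p = 0.159), and it remained in 6 of the 17 fits that left out 1 array.

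Zmat3 was similar in size. The signal of 1449353_at ran from 761 to 1408 with a median of 921 in the controls, and from 931 to 1603 with a median of 1414 after urethane. The highest control was again 36 (1408; the next was 1055), and the lowest urethane sample was 33 (931; the next was 1254). The difference was 0.51 (SE 0.13, 95% interval 0.24 to 0.78, adjusted p = 0.0455, limma), and 10 of 11 urethane samples lay above the control mean. It was 0.53 on day 1 (adjusted p = 0.0294) and 0.47 on day 2 (adjusted p = 0.208). The call held in only 2 of the 17 fits that left out 1 array, those without control 36 (0.62, adjusted p = 0.006) and without urethane 33.

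Cyclin G1 (Ccng1), a target that recruits phosphatase PP2A to Mdm2, was higher by all 3 of its probe sets without passing in the pooled fit. Its brightest, 1420827_a_at, ran from 2041 to 4489 with a median of 3569 in the controls and from 3424 to 5931 with a median of 4559 after urethane. Controls 33 (2135) and 35 (2041) were low, and the other 4 lay within the urethane range. The difference was 0.55 (SE 0.17, 95% interval 0.21 to 0.90, adjusted p = 0.109, limma). It was 0.19 on day 1 (adjusted p = 0.506), 0.72 on day 2 (adjusted p = 0.0512) and 0.29 with the control probe set ratios in the fit (adjusted p = 0.312). The other probe sets, 1450016_at and 1450017_at, differed by 0.42 (adjusted p = 0.275) and 0.45 (adjusted p = 0.0724). On day 1 both passed, at 0.58 (adjusted p = 0.0305) and 0.56 (adjusted p = 0.0135, limma), and on day 2 neither did (0.25 and 0.35). With the control probe set ratios 1450016_at passed (0.56, adjusted p = 0.0341), as did Phlda3 and Zmat3, in a fit where 1.48% of all probe sets rose. 1450017_at passed with scan day as a block (0.43, adjusted p = 0.0354) and without control 36 (0.54, adjusted p = 0.016). In the fit blocked by scan day, 4 of the 14 member probe sets rose, against 2.7% of all probe sets: those of Phlda3, Trp53inp1 and Zmat3 named above and 1450017_at of Ccng1.

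Cdkn1a was the member most affected by a single control. The signal of 1424638_at ran from 1672 to 5305 with a median of 2409 in the controls, and from 1749 to 5153 with a median of 3079 after urethane. Control 36 gave the 5305, the highest value of all 17 arrays, and the other 5 controls lay at or below 2619. The difference was 0.32 (SE 0.20, 95% interval -0.10 to 0.74, adjusted p = 0.566, limma), and without control 36 it was 0.54 (adjusted p = 0.102). On day 1 the groups did not overlap, as for 11.2% of all probe sets higher on that day, and the difference was 0.63 (adjusted p = 0.0631). A second, dimmer probe set, 1421679_a_at, differed by -0.08 (SE 0.36, adjusted p = 0.965).

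Mdm2 did not pass by either tested probe set. The signal of 1427718_a_at ran from 782 to 1381 with a median of 1072 in the controls, and from 834 to 1339 with a median of 1046 after urethane, so the urethane range lay within the control range. The difference was 0.03 with a 95% interval of -0.24 to 0.30, and that of 1423605_a_at was -0.04 with an interval of -0.36 to 0.28 (adjusted p = 0.956). These intervals leave out a rise of the size seen for Phlda3. The last Mdm2 probe set, 1457929_at, exceeded the filter on 0 of 6 controls and 2 of 11 urethane arrays, and was not tested.

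Bbc3 and Sesn2 complete the measured set. Bbc3 encodes Puma, a BH3-only protein that sets off apoptosis at the mitochondria. Its signal ran from 214 to 402 with a median of 274 in the controls and from 240 to 519 with a median of 340 after urethane, with the ranges overlapping widely. The difference was 0.24 (SE 0.18, 95% interval -0.13 to 0.60, adjusted p = 0.655, limma). Sesn2 encodes sestrin 2, which restrains mTORC1 under stress. It ran from 338 to 582 with a median of 507 in the controls and from 310 to 665 with a median of 459 after urethane. Its probe sets differed by -0.10 (95% interval -0.46 to 0.25, adjusted p = 0.880) and -0.13 (adjusted p = 0.822).

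**Figure D2:**
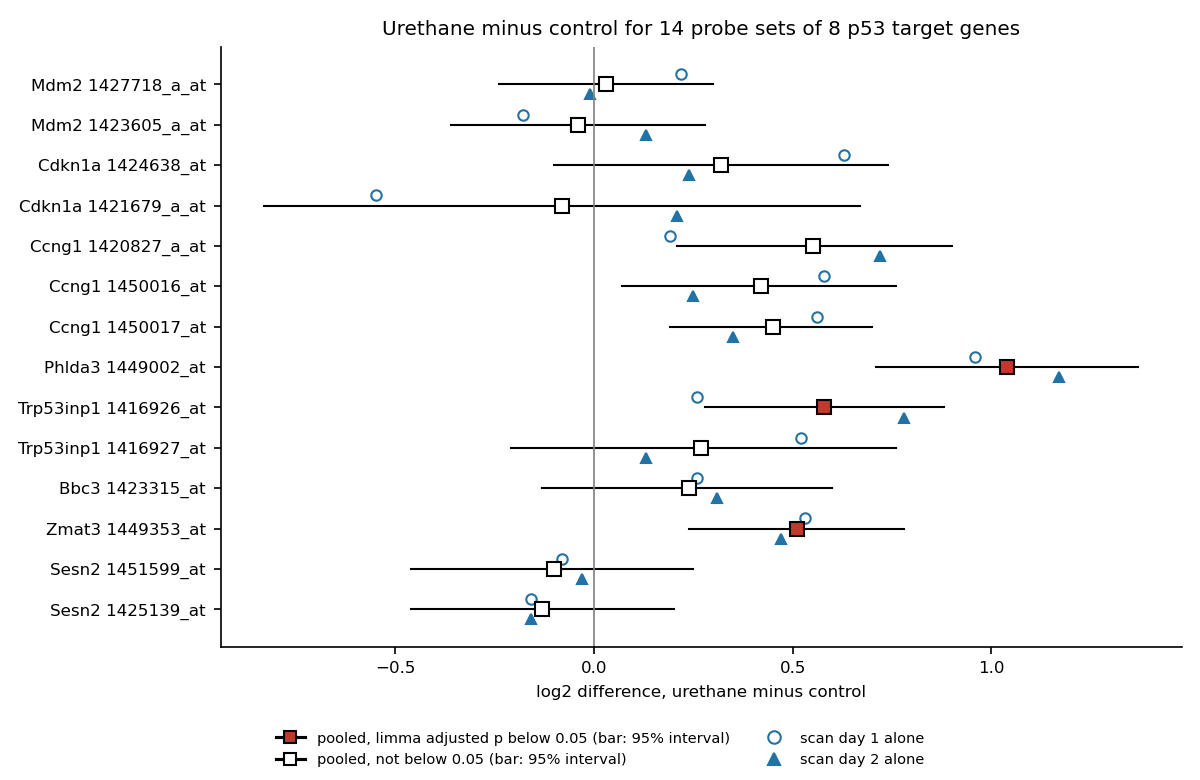
Difference between urethane and control in log2(signal + 17.1) for each of the 14 tested member probe sets, with the pooled 95% interval as a bar and the values of each scan day as blue symbols. Filled squares passed in the pooled fit: Phlda3 at 1.04, Trp53inp1 at 0.58 and Zmat3 at 0.51; all 3 Ccng1 intervals lie above 0 without passing after adjustment over all probe sets.

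Control 36 was the highest control for 9 of the 14 tested member probe sets. The share over all probe sets is not given here, so this count is not shown to be particular to these genes. It is labelled as an untreated sample and was kept in every pooled value above. Relative to the mean of the 4 controls of its scan day, which includes it, it stood 0.82 higher for Cdkn1a, 0.70 for Phlda3, 0.58 for Zmat3 and 0.57 for Trp53inp1 on the log2 scale, and 0.05 higher for Mdm2. Among the urethane samples, 32 was high in several members, at 1.27 for Phlda3, 1.20 for Trp53inp1, 1.07 for Ccng1 and 0.76 for Zmat3 against the same mean, while Sesn2 stood at -0.41. Every urethane sample was at 0.70 or more for Phlda3 against the control mean of its own scan day. Without control 36 the Phlda3 difference was 1.20 (adjusted p = 3.6e-05, limma).

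**Figure D3:**
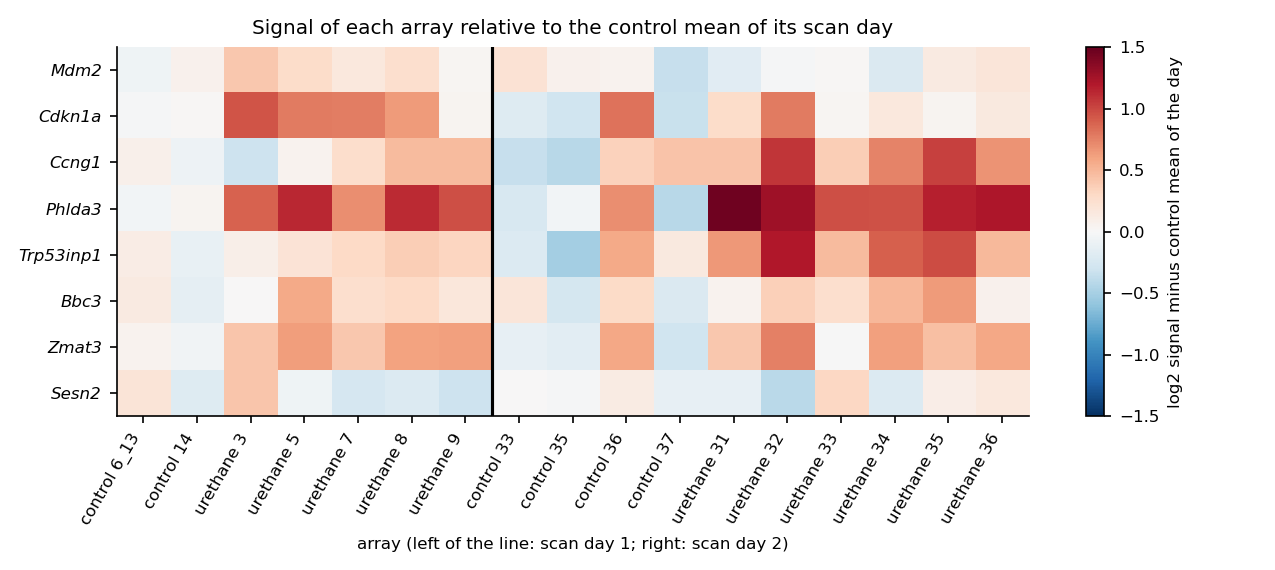
Signal of the brightest probe set of each member on every array, as the log2 difference from the mean of the controls of the same scan day, with red for higher and blue for lower. The Phlda3 row runs from 0.70 to 1.46 in the 11 urethane samples, and control 36 stands above the other controls in the Cdkn1a, Phlda3, Zmat3 and Trp53inp1 rows.

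The members did not all move together from array to array. After each group mean was removed, 19 of the 28 pairs of the 8 genes had a Pearson r above 0 over the 17 arrays, with a median r of 0.42. With the scan day means removed as well, 22 pairs lay above 0 and the median r was 0.26. These values are a description with no test, and the arrays share scan days and chip lots. The genes whose array to array pattern was most like Phlda3 were Dram1 (r = 0.93), a p53 target of autophagy, Lrpap1 (0.93) and Anxa3 (0.92), over the same 17 arrays with group means removed. For Cdkn1a they were Mindy1 (0.89), Ttc7 (0.88) and Cops9 (0.87). Of these 6, Lrpap1 alone passed the group comparison, with a difference of 0.88 (SE 0.17, adjusted p = 0.01, limma).

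Most genes that act on p53 did not pass. Of 13 regulators, 2 rose and 0 fell, with a median difference of -0.21, and by the same rule of 1 probe set a gene 1.43% of the 13390 genes rose and 0.836% fell. Cdkn2a, whose locus encodes the Mdm2 inhibitor p19Arf and the kinase inhibitor p16Ink4a, ran from 81 to 272 with a median of 115 in the controls and from 145 to 516 with a median of 273 after urethane. Its groups overlapped, and the difference was 1.04 (SE 0.26, adjusted p = 0.0413, limma). On neither scan day alone did Cdkn2a pass, at 1.02 on day 1 (adjusted p = 0.0542) and 1.15 on day 2 (adjusted p = 0.0608, limma). Hipk2, a kinase that phosphorylates p53, ran from 2028 to 4581 with a median of 3179 in the controls and from 3269 to 5860 with a median of 4707 after urethane. It rose by 0.65 by its brightest probe set (SE 0.15, adjusted p = 0.0279, limma), the highest of its 7 tested probe sets, which differed by 0.17 to 0.65. The Hipk2 difference was 0.06 on day 1 (adjusted p = 0.828) and 0.99 on day 2 (adjusted p = 0.0019), and the test of the difference between the days did not pass (0.93, SE 0.24, adjusted p = 0.0976, limma). The DNA damage kinases Atm and Atr differed by -0.21 (adjusted p = 0.544) and -0.33 (adjusted p = 0.289), and neither Chek1, Chek2 nor Mdm4 passed.

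Of 44 further p53 targets, 37 were tested, and 0 rose and 1 fell, with a median difference of 0.10. Of all 13390 genes 1.43% rose and 0.836% fell, so 1 gene that fell among 37 says little about these targets as a set. The one that fell was Xpc, which recognises damaged DNA for nucleotide excision repair. It ran from 774 to 916 with a median of 791 in the controls and from 420 to 760 with a median of 519 after urethane, with no overlap between the groups, as for 0.315% of all probe sets. The difference was -0.64 (SE 0.12, adjusted p = 0.0064, limma), and it was -0.65 on day 1 and -0.66 on day 2. The other 7 tested genes of DNA repair and nucleotide supply did not pass, and that list's median was -0.06.

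In the lists of targets where none passed, the gene of smallest p is given. Of 8 tested genes of cell cycle arrest (median -0.14), Ckap2, a spindle protein, differed by -0.97 (SE 0.30, adjusted p = 0.117). Of 10 tested genes of apoptosis (median 0.09), Pmaip1, the BH3-only protein Noxa, differed by 0.64 (SE 0.19, adjusted p = 0.105). Of 11 tested genes of metabolism, autophagy and secreted factors (median 0.18), Ddit4, an inhibitor of mTORC1, differed by 1.11 (SE 0.31, adjusted p = 0.0729, limma).

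With scan day as a block, 6 of the 37 further targets rose and 2 fell, against 3.78% and 2.82% of all genes. Those 8 are named here after their values were seen, and the lists were chosen with earlier results of these data known. The comparison with all genes is therefore a description only. The risers were Sesn1, a sestrin like Sesn2 (1.24, adjusted p = 0.0023), Ddit4 (1.19, adjusted p = 0.0088), Plk2 (0.88, adjusted p = 0.0446), Pmaip1 (0.67, adjusted p = 0.0273), Ephx1 (0.61, adjusted p = 0.0358) and Dram1 (0.42, adjusted p = 0.0151). The 4 tested probe sets of Sesn1 did not agree, and differed by -0.10 to 1.15 in the pooled fit. Some controls were dim for Sesn1 (signal 56 to 693), Ddit4 (17 to 170) and Plk2 (50 to 311). Ckap2 fell by 1.06 (adjusted p = 0.0106) and Xpc fell by 0.65 (adjusted p = 0.0014, limma). The 3 members named as rising remained so with the block, Phlda3 at 1.09 (adjusted p = 1.6e-05), Trp53inp1 at 0.59 (adjusted p = 0.0166) and Zmat3 at 0.49 (adjusted p = 0.0192).

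**Figure D4:**
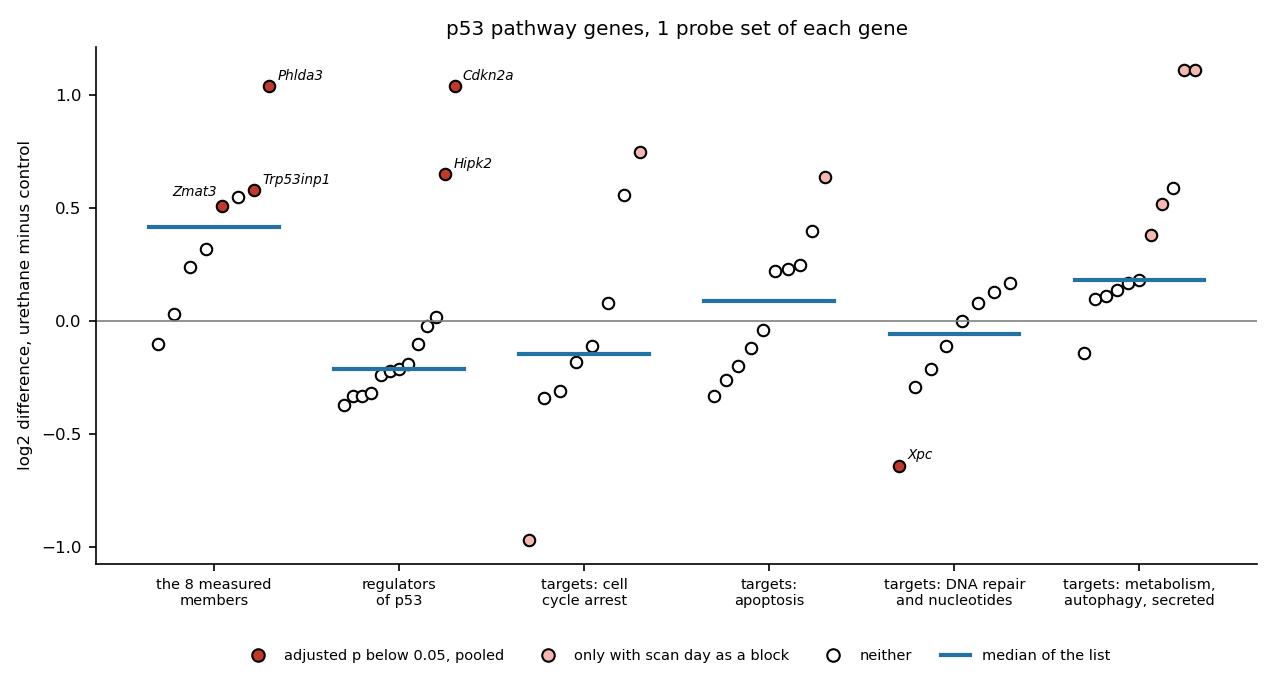
Difference between urethane and control in log2(signal + 17.1) for 1 probe set of each gene, by list, with the list's median as a blue line. Dark red points passed in the pooled fit and pale points only with scan day as a block; the median of the 8 measured members is 0.42 and those of the other 5 lists lie between -0.21 and 0.18.

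Markers of other cell types moved with the groups, and their part in the members' differences was not tested. Of the 13390 genes 1.43% rose and 0.836% fell in the pooled fit, and 3.78% and 2.82% with scan day as a block. Of 12 airway epithelium markers 4 fell and 0 rose, and their summed signal was 19407 to 40554 in the controls and 8860 to 13602 after urethane. Of 7 tested neutrophil markers 2 rose, S100a8 and Wfdc21, and the others did not pass. On the log2 scale S100a9 (1.58) and Cxcr2 (0.5) were higher, and Csf3r (-0.28), Mmp9 (-0.77) and Ltf (-0.76) were lower. The sums were 8922 to 30341 in the controls and 16717 to 70330 after urethane. Bright markers and single arrays weigh most in these sums: S100a9 had a median of 502 after urethane and a highest value of 21606. Of 11 alveolar macrophage markers 2 rose and 1 fell, and their sums, 157023 to 194213 in the controls and 121937 to 191854 after urethane, were large in both groups. Of 5 markers of monocytes and interstitial macrophages 1 fell, and of 6 of alveolar type 2 cells 1 fell. Of 8 T cell markers 1 rose in the pooled fit (sums of 8834 to 15006 in the controls and 7786 to 12633 after urethane). Cd2, the brightest of them by median signal, ran from 7630 to 12761 in the controls and from 3060 to 10846 after urethane. In the fit blocked by scan day 4 were higher and 1 was lower past the threshold. Those higher were Ms4a4b (2.16), Cd3d (2.04), Il7r (1.84) and Cd3g (1.07) on the log2 scale, and the lower one was Cd2 (-0.90). None of 5 general leukocyte, 4 B and plasma cell, 3 erythroid and 9 proliferating cell markers passed in the pooled fit, while with the block 6 of the 9 proliferating cell markers fell, 1 of the 4 B and plasma cell markers rose, 5 of the 12 airway epithelium markers fell, and 2 of the 11 markers of alveolar macrophages rose while 3 fell. Camp, a neutrophil marker, and Cd79b, a B cell marker, were too dim to be tested.

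The arrays also differed in their dim signals. The 20th percentile of signal ran from 15.7 to 28.4 in the controls and from 9.49 to 66.2 after urethane, highest in urethane 33, 35 and 36. With its log2 as a covariate, Phlda3 differed by 1.06 (adjusted p = 0.00072), Trp53inp1 by 0.58 (adjusted p = 0.0286) and Zmat3 by 0.48 (adjusted p = 0.0158, limma). With 1450017_at of Ccng1 (0.43, adjusted p = 0.0448), 4 of the 14 member probe sets rose in this fit, where 1.73% of all probe sets rose.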

How the data were processed

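RNA of 17 lavage samples was measured on Mouse430_2 arrays. For every probe set the authors deposited an intensity on a linear scale, made with MAS5 per the submitters' processing notes, which give no version. The mean of each deposited array, trimmed by 2% at each end, was 500, and this scaling was kept. Scan day and chip lot came from the scan files. Depth does not apply to arrays: the number of arrays limits the precision.

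Values were taken as log2(signal + 17.1), with a pseudocount equal to the median of the arrays' 20th percentiles. Probe sets were kept where their signal passed the array's 40th percentile on 6 or more arrays (29550 of 45101, of which 24468 had 1 gene symbol). Groups were taken from the sample titles. The comparison used limma 3.58.1 under R 4.3.3, with lmFit and a trended eBayes, two-sided. P-values were adjusted over all kept probe sets by the Benjamini-Hochberg method, at a threshold of 0.05. The script was tested on simulated data. Plots came from matplotlib 3.10.9 (Python 3.11.15).

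All members were named. A gene's value is that of its brightest kept probe set. Of each other list, every gene that passed was named, or with none the gene of smallest p, and for Phlda3 and Cdkn1a the 3 genes of most similar pattern. The members and lists were chosen with earlier results of these data known. Alternatives covered scaling, pseudocount, filter, variance model, covariates, scan day, the numbers that both groups share, and leaving out each array.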

Additional observations from a re-analysis of the deposited data

Results flagged for a closer look

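In the controls, the Phlda3 signal of sample 36 stood apart from the other 5. Its gap to the next control was 0.668 of the whole control range on the log2 scale, past Dixon's 95% critical value for 6 samples. The control groups of 15 member probe sets were examined this way and 1 was past it, and chance gives about 1 in 20 groups. Without that sample the Phlda3 difference was 1.20 in place of 1.04.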

How the results depend on the processing

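The Phlda3 rise kept its direction and passed in all 18 other settings and 17 fits without 1 array (0.91 to 1.20), while Trp53inp1 passed in 18 of these 35 and Zmat3 in 13, both higher in all. The probe sets passing in the pooled fit (466) numbered 227 without a variance trend, 1456 with scan day as a block, 1487 on day 1 alone, 808 on day 2 alone, 1079 with the 20th percentile signal as a covariate, and 224 to 772 without 1 array. That count was lowest without control 35 (224) and, for the other arrays that moved it by over 1.5 times, was 231 without control 33, 284 without control 14, 304 without urethane 32, 306 without control 37, 307 without control 6_13 and 772 without control 36. The member probe sets that rose (3) numbered 1 with arrays set to a common 75th percentile, without a variance trend or with a 1.5-fold minimum, 5 with array weights, and 1 to 4 without 1 array; none fell in any setting. The test of the difference between scan days (5 probe sets) gave 0 with quantile normalization, 15 with a pseudocount of 1, 22 without the filter, 11 over genes, 18 without a variance trend, 440 with array weights, and 0 to 1802 without 1 array, the highest being without control 37. Cdkn1a turned to -0.04 in the 6 arrays of the 3 shared numbers. Mdm2 turned to -0.11 with array weights, -0.01 on day 2 alone and in those 6 arrays, and -0.06 without urethane 33, 35 and 36, and ran from -0.05 to 0.11 without 1 array. Sesn2 turned to 0.15 in those 6 arrays. Ccng1 (1420827_a_at) ran from 0.19 on day 1 alone to 0.83, and passed with array weights (0.72, adjusted p = 0.0252, limma). It also passed in those 6 arrays, with a replicate block (0.83, adjusted p = 0.0020) and without it (0.83, adjusted p = 0.0067, limma). There 6023 and 6040 of the 29550 probe sets passed, so passing in those arrays was common. The causes were not tested. Of the 8 genes with a promoter window, 6 held a decamer with up to 1 mismatch, 1 an exact pair and 2 a pair with up to 1 mismatch in all.

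Both groups share the numbers 33, 35 and 36, but samples of the same number did not deviate together (r of 0.0045, -0.11 and -0.14 over probe sets). These values cannot tell whether the numbers pair samples, since a pairing need not leave a shared deviation, and the labels do not say. With these 6 arrays and a replicate block 6023 probe sets passed, against 6040 without the block. The fits on these 6 arrays without the block, with the 20th percentile covariate and without urethane 33, 35 and 36 were chosen after seeing the data. Probe sets near background carry compressed differences, 2 controls on day 1 give little hold on their own spread, and neither p53 protein nor its activity was measured.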
